A study of Mus musculus with 8 samples.

Results

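*Trio* and *Tiam1* encode guanine nucleotide exchange factors of the Dbl family, and the H3K9me3 peaks assigned to these 2 genes in mouse colon crypts are described here in crypts with and without Smarcad1. The members are all peaks whose closest gene in the deposited table is *Trio* (10 peaks on chromosome 15) or *Tiam1* (6 peaks on chromosome 16), which makes 16 of the 53761 peaks in the table. Both genes were chosen by the ChIP values of KO and WT at these same peaks, which earlier results of these data had shown, so the difference between genotypes at their peaks is given as a description, without a test. H3K9me3, trimethylation of lysine 9 of histone H3, was measured by ChIP-seq with antibody ab8898 on whole crypt isolates from the colon of C57BL/6 male mice, in 3 immunoprecipitated (ChIP) libraries and 1 library of input DNA for each genotype. KO mice were homozygous for a *Smarcad1* allele with exons flanked by loxP sites (*Smarcad1* fl/fl). They also carried a Cre transgene under the Villin promoter (Vil-Cre), which is active in the intestinal epithelium, and the other group was WT. The floxed allele came from a single mouse line made from 1 ES cell clone, and ages of the animals are not given in the sources used here. Whole crypt isolates may hold cells in which the Villin promoter is not active, and in bulk chromatin a mark on fewer cells cannot be told apart from less of the mark per cell.

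Exchange factors load small GTPases with GTP. Trio carries a pair of exchange domains, of which one acts on Rac1 and RhoG and the other on RhoA, and it is known from axon guidance downstream of netrin receptors and from cadherin junctions. Tiam1 activates Rac, acts in cell adhesion and polarity, and is known as a target of Wnt signalling in intestinal tumours. H3K9me3 marks heterochromatin, where HP1 proteins bind it, and Smarcad1 is a SWI/SNF-like remodeller that helps to maintain heterochromatin through replication.

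Peaks were called on all ChIP libraries together, so each has a value in every library, and these values are log2 read counts which the authors had brought to 1 distribution in the 6 ChIP libraries. To compare peaks of different width, the matched values were also put on a linear scale and divided by the width ("matched reads per kb"). The reads behind the median peak numbered 14 to 20 per ChIP library, and the WT and KO inputs held 10 and 9. *Smarcad1*, the deleted gene, had 0 peaks, so the mark itself cannot check the labels. *Vil1*, whose promoter drives the transgene, had 1 peak with a log2 fold change of 5.68 and 1111 KO against 133 WT input reads. Over all peaks the KO to WT input ratio was 0.943, so the ChIP difference at *Vil1* cannot be read as the mark alone. Of markers of colon epithelium, 2 of 9 had a peak (*Lgr5* and *Vil1*), as had 3 of 5 immune and 2 of 5 stromal and vessel markers. None of these peaks other than that of *Vil1* was called in limma, and at an unadjusted p under 0.05 there were 0 of them as well, as there were in limma-voom on recovered reads. A histone mark does not measure which of these cells were present. Over all 53761 peaks, limma with a Benjamini-Hochberg adjusted p under 0.05 called 428 peaks (0.796%) increased and 464 (0.863%) decreased in KO, together 1.66% of those tested. At an unadjusted p under 0.05, 10.6% of all peaks passed, 4.52% higher and 6.06% lower in KO. Differences between genotypes are given below as log2 fold changes ± their standard error (SE) from this fit.

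*Trio* (ENSMUSG00000022263) lies on the minus strand of chromosome 15 from 27730651 to 28025848 in GRCm38. All 10 peaks fell within intron 1 of the longest *Trio* transcript (27919292 to 28025339, 106.0 kb), and they overlapped 0 exons of any annotated *Trio* transcript. They ran from 27924601 to 27996000, covered 47.7 kb of that stretch of 71.4 kb and took up 45.0% of the intron and 16.2% of the gene. The peak nearest to the gene start ended 29.8 kb downstream of it. None of the 6 protein-coding transcripts of *Trio* began in a peak, and the closest start lay 5330 bp from one. Below, peaks are numbered by rising coordinate, so that *Trio* peak 10 is the nearest to the gene start.

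The sequences below place the described peaks and starts on the GRCm38 assembly. They are shown 5′ to 3′ on the minus strand, which is the coding strand of both genes, with each CpG dinucleotide in capitals because DNA methylation and H3K9me3 often go together at CpG sites. The letters searched were CG, which reads the same on both strands. At least 1 CG is found in 92.1% of the windows of 250 bases upstream of 32851 gene starts in RefSeq and in 81.2% of the 300-base centres of all peaks, where the medians are 6 and 2. First are the centres of the *Trio* peaks with the largest and the smallest difference between genotypes, and then the window upstream of the *Trio* start, which no peak covered.
Trio peak 10, chr15:27995551-27995850: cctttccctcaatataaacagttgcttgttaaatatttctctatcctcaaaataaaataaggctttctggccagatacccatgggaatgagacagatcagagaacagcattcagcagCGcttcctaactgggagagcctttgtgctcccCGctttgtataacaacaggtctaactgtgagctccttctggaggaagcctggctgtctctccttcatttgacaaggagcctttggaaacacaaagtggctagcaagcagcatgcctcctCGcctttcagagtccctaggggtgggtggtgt
Trio peak 6, chr15:27975301-27975600: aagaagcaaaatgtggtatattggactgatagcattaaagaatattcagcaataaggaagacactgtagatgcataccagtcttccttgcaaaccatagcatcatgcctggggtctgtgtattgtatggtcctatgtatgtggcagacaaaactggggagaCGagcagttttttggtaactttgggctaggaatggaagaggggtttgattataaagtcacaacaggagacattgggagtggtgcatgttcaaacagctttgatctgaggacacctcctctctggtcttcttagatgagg
Trio start, upstream window, chr15:28025849-28026098: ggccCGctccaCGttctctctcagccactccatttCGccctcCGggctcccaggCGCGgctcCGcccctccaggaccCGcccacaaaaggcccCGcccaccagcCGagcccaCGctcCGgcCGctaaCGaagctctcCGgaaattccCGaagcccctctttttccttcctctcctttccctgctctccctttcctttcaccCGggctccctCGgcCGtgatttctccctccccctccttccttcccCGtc
The centre of peak 10 holds 3 CG and that of peak 6 holds 1. As many as 3 were found in 36.9% of all peak centres. The upstream window holds 20, a number reached by 17.9% of the windows upstream of RefSeq starts.

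H3K9me3 over *Trio* was low in WT and higher in KO. Summed over the 10 peaks, the WT libraries held 9.59, 7.92 and 9.46 matched reads per kb and the KO libraries 23.2, 23.6 and 18.0. WT averaged 8.99 ± 0.93 (SD, n = 3) and KO averaged 21.6 ± 3.10 (SD, n = 3), a ratio of 2.40. All 3 KO libraries lay above all 3 WT libraries, and KO replicate 3 was the lowest of the KO libraries. In the fit over all peaks 9 of the 10 peaks were called increased, where 0.796% of all peaks were, and at the same 9 peaks the genotypes did not overlap with KO above WT, as at 7.20% of all peaks. The choice of the genes rests on this contrast, so nothing is read from these counts. The log2 fold changes ran from 0.32 to 2.16 with a median of 1.47, while the median of all peaks was 0.00.

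**Figure D1:**
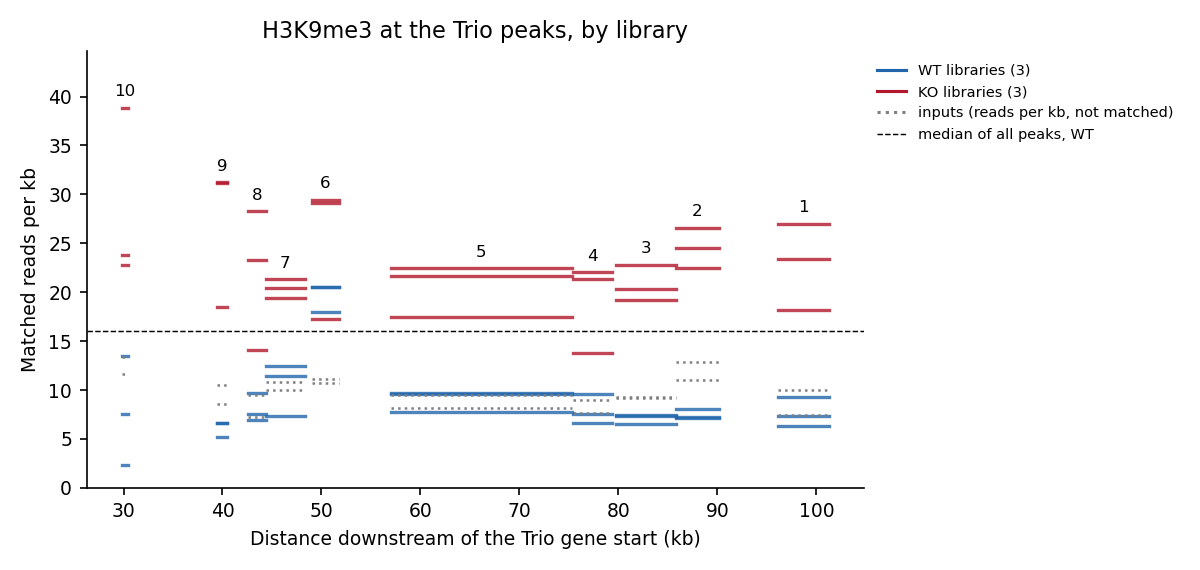
Matched reads per kb (y axis) at the 10 *Trio* peaks against distance downstream of the gene start in kb (x axis), as horizontal bars over the width of each peak for 3 WT libraries (blue), 3 KO libraries (red) and both inputs (dotted, reads per kb that are not matched). The dashed line is the WT median of all peaks at 16.0. WT bars sit below it at 9 peaks and above it at peak 6, while KO means at the 10 peaks range from 19.1 to 28.5.

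The 3 highest log2 fold changes were found at peaks 10, 9 and 2. Peak 10 (27995401 to 27996000, 600 bp) had log2 values of 3.01, 2.18 and 0.49 in WT and of 3.84, 4.54 and 3.77 in KO. Its log2 fold change of 2.16 ± 0.49 (SE) rests in part on WT replicate 3, since without that library it was 1.46, and few reads lie behind it, 7, 5 and 2 in WT and 12, 23 and 15 in KO as counted from the steps of the values. Peak 9 (27985351 to 27986400) had 2.80, 2.45 and 2.79 in WT and 5.03, 5.04 and 4.28 in KO, which differ by a log2 fold change of 2.10 ± 0.33 (SE). The KO libraries there stand well apart from WT, with a gap of 1.48 between the lowest KO and the highest WT value. Peak 2 (27935701 to 27940050) had 5.12, 4.96 and 4.97 in WT and 6.85, 6.74 and 6.61 in KO. The log2 fold change there was 1.72 ± 0.17 (SE). Replicates of this peak lay within 0.24 of each other in either genotype.

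Peaks 1 to 5, with 37.65 kb in all, lie farthest from the gene start. The widest of the 10, peak 5 (27950551 to 27968850, 18300 bp), had log2 values of 7.47, 7.15 and 7.45 in WT and 8.68, 8.63 and 8.32 in KO, at a log2 fold change of 1.19 ± 0.12 (SE). Peaks 1, 3 and 4 had log2 fold changes of 1.58, 1.55 and 1.25, and peaks 7 and 8 of 1.00 and 1.40. At each of these 5 peaks the lowest KO value lay above the highest WT value.

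Peak 6 (27974101 to 27976800, 2700 bp) was the 1 *Trio* peak that was not called. It had log2 values of 5.60, 5.79 and 5.79 in WT and of 6.31, 6.30 and 5.54 in KO. Its log2 fold change was no more than 0.32 ± 0.18 (SE). KO replicate 3 lay below all 3 WT libraries here, so the genotypes overlapped. With 19.7 matched reads per kb peak 6 was the only *Trio* peak whose WT mean exceeded the WT median of all peaks (16.0), and its KO mean of 25.3 lay within the range of the other 9 peaks. Those 9 had WT means of 6.14 to 10.4 matched reads per kb. The KO means of all 10 peaks spanned 19.1 to 28.5.

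**Figure D2:**
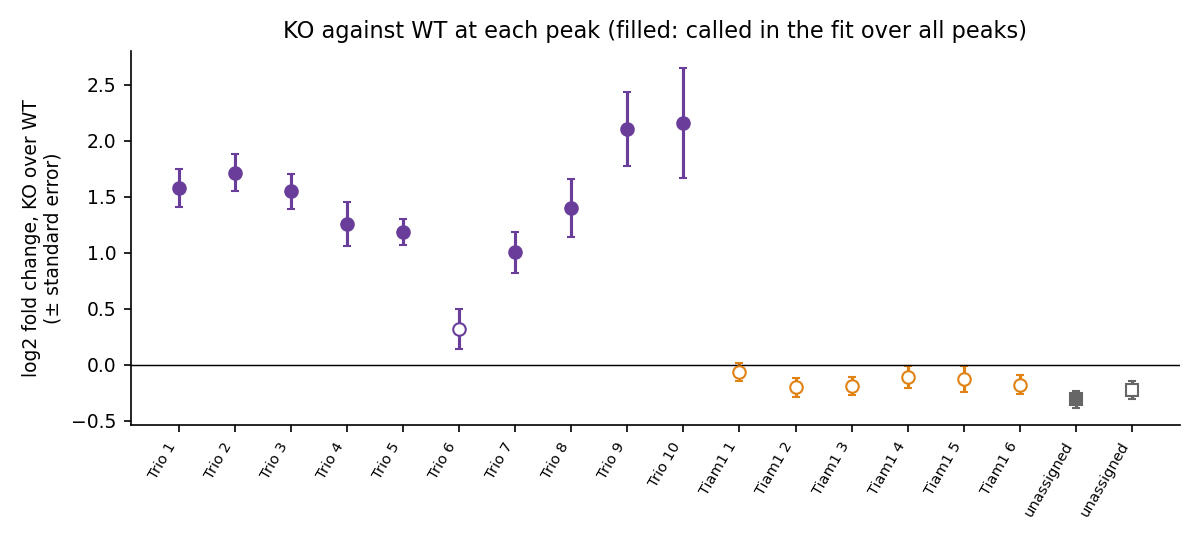
Log2 fold change of KO over WT (y axis) with its standard error (bars) for each peak (x axis), with *Trio* in purple, *Tiam1* in orange and the 2 peaks inside the longer *Tiam1* gene model that carry no gene in the table in grey. Filled symbols were called in the limma fit over all peaks: *Trio* points lie between 0.32 and 2.16, *Tiam1* points between -0.20 and -0.06.

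KO replicate 3 was the lowest KO library at 10 of 10 *Trio* peaks. The same library was the lowest KO library at 71.1% of the 419 increased peaks outside *Trio* and at 32.4% of all peaks, so its lower values were shared with other increased peaks. WT replicate 2 was the lowest WT library at 7 of 10 *Trio* peaks and at 42.7% of those 419. With any 1 library left out, 8 or 9 of the 10 peaks were still called. Peak 10 was lost without WT replicate 3 and without KO replicate 2. With the trend taken out of the variance prior, limma called 3 of the 10, and 127 of all peaks.

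Input DNA over *Trio* did not follow the ChIP. The 10 peaks held 463 WT and 434 KO input reads, a KO to WT ratio of 0.937 (95% exact interval 0.820 to 1.07, counting error only), compared to 0.943 over all peaks. The single input library per genotype has no replicate, and input values are not scaled to the ChIP values, so a difference between ChIP and input is read only against that of other peaks. WT ChIP minus WT input had a median of -0.31 over the *Trio* peaks on the log2 scale, from -1.11 to 0.82, while the median of all peaks was 0.79. In KO the median was 1.22, from 0.92 to 1.61, compared to 0.88 for all peaks. By this measure 9 *Trio* peaks lay among the lowest 3.61% of all peaks in WT, and all 10 lay between percentiles 52.8 and 87.3 in KO. Peaks were called on all ChIP libraries together, so a peak low in WT could enter the set through KO alone. These ranks depend on that peak calling and on the choice of the genes, and they are given as a description.

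**Figure D3:**
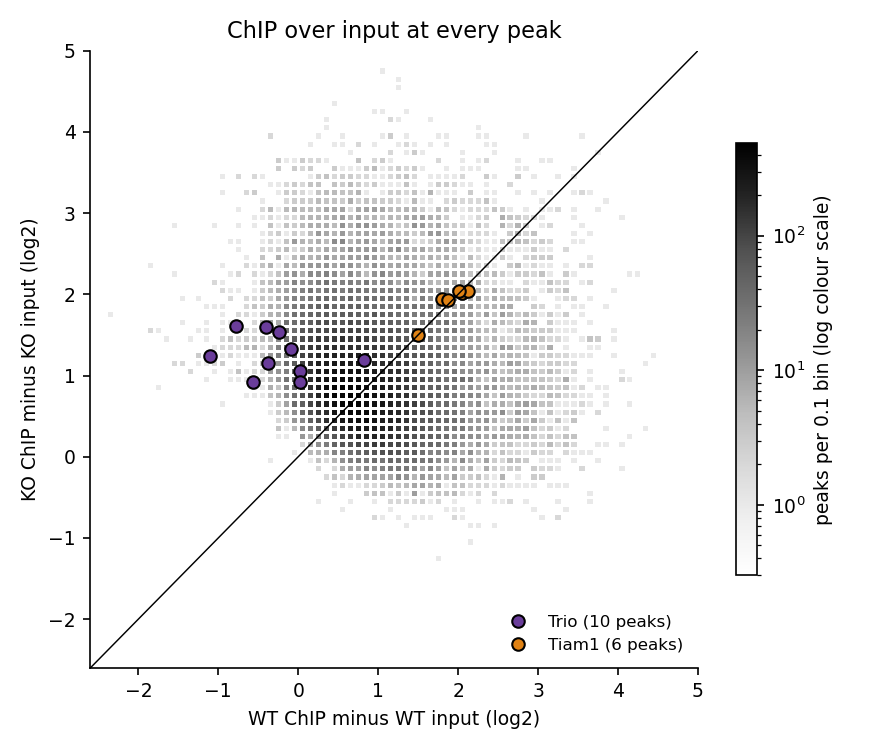
KO ChIP minus KO input (y axis, log2) against WT ChIP minus WT input (x axis, log2) for all peaks (grey, number of peaks per bin on a log colour scale), *Trio* (purple) and *Tiam1* (orange); the line marks equal values. *Trio* peaks lie at -1.11 to 0.82 in WT and 0.92 to 1.61 in KO, and *Tiam1* peaks close to the line at 1.49 to 2.13 in WT.

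*Trio* was not alone in holding increased peaks. The 428 increased peaks, those of *Trio* included, had median matched reads per kb of 8.88 in WT and 23.2 in KO. The *Trio* medians were 7.84 and 22.4. These 428 peaks were picked as higher in KO in the same fit, from peaks called on both genotypes together. Their likeness to *Trio* in these medians follows from that choice and is given as a description. *Trio* held 9 of the increased peaks, or 2.10%. Of 138 genes with an increased peak, 8 had at least as many, *Trio* included. Repeats made up 10.9 to 19.9% of the bases of the *Trio* peaks (soft-masked bases in GRCm38), and CpG density was 8.15 to 18.7 per kb. Over the increased peaks the medians were 15.4% and 16.3 per kb, over the decreased peaks 39.4% and 8.30 per kb, and over all peaks 37.8% and 6.67 per kb. Repeat content and CpG density were not themselves used to choose the genes. By these medians, however, increased peaks as a class had fewer repeats and more CpG than all peaks. Choosing *Trio* by its ChIP values can therefore carry both traits along, and they are given as a description. The *Tiam1* peaks, none of which limma called, also lay below the repeat median and above the CpG median of all peaks.

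*Tiam1* (ENSMUSG00000002489) is on the minus strand of chromosome 16, from 89787111 to 90143769 in GENCODE M21. Its 6 peaks ran from 89781001 to 89996850 with gaps of 150 to 750 bp, so that peaks covered 98.8% of 215.9 kb. With a summed width of 213.3 kb *Tiam1* ranked as number 5 among the 5543 genes with a peak, whose median was 1950 bp, and *Trio* as number 68. Peak 1 (89781001 to 89878200, 97200 bp) was the third widest of all peaks and overlapped 6 exons of the longest *Tiam1* transcript, while peaks 5 and 6 lay within its intron 2. Of the 6 protein-coding *Tiam1* transcripts, 5 began inside a peak. The exception was the longest transcript, whose start at 90143769 lay 2769 bp beyond the last of the 2 peaks described further down. The next sequences are the centre of peak 1, the upstream window of a start inside peak 6, and that of the start of the longest transcript, outside the peaks.
Tiam1 peak 1, chr16:89829451-89829750: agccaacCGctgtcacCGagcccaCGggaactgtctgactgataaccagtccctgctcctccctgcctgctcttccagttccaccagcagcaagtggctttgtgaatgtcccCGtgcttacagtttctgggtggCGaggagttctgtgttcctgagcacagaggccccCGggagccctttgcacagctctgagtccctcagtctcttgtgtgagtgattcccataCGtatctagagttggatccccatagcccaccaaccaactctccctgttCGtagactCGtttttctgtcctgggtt
Tiam1 start in peak 6, upstream window, chr16:89974700-89974949: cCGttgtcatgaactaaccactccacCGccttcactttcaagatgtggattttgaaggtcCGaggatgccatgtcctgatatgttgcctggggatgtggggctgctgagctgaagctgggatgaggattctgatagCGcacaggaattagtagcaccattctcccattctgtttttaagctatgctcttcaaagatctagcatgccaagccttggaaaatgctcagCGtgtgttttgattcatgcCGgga
Tiam1 start outside the peaks, upstream window, chr16:90143770-90144019: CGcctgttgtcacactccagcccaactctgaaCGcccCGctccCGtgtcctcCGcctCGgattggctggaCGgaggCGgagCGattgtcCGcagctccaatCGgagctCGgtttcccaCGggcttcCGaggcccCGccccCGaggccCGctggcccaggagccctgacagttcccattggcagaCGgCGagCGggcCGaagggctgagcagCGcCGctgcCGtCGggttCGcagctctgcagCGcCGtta
The centre of peak 1 holds 9 CG, and 4.84% of all peak centres hold as many. The window inside peak 6 holds 6, as many as the median upstream window, while the window outside the peaks holds 28, a number reached by 7.61%.

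H3K9me3 over *Tiam1* was high in both genotypes. Summed over the 6 peaks there were 31.8, 30.3 and 30.4 matched reads per kb in the WT libraries and 26.7, 28.2 and 29.5 in the KO libraries. WT averaged 30.8 ± 0.80 (SD, n = 3) and KO averaged 28.1 ± 1.39 (SD, n = 3), a KO to WT ratio of 0.912. KO libraries were thus slightly below WT without overlap, while WT *Trio* peaks held 8.99 on the same scale. In the fit over all peaks limma called 0 of the 6 peaks, where 1.66% of all peaks were called in either direction, and 3 of the 6 were lower in KO at an unadjusted p under 0.05, as were 6.06% of all peaks. These peaks hold too many reads for the limma-voom fit on recovered reads, which covered 0 of them. All 3 KO values lay below all 3 WT values at 4 of the 6 peaks, against 8.42% of all peaks and 21.7% of the 286 peaks of at least 10 kb, of which 3.15% were called decreased. As at *Trio*, these counts are a description.

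**Figure D4:**
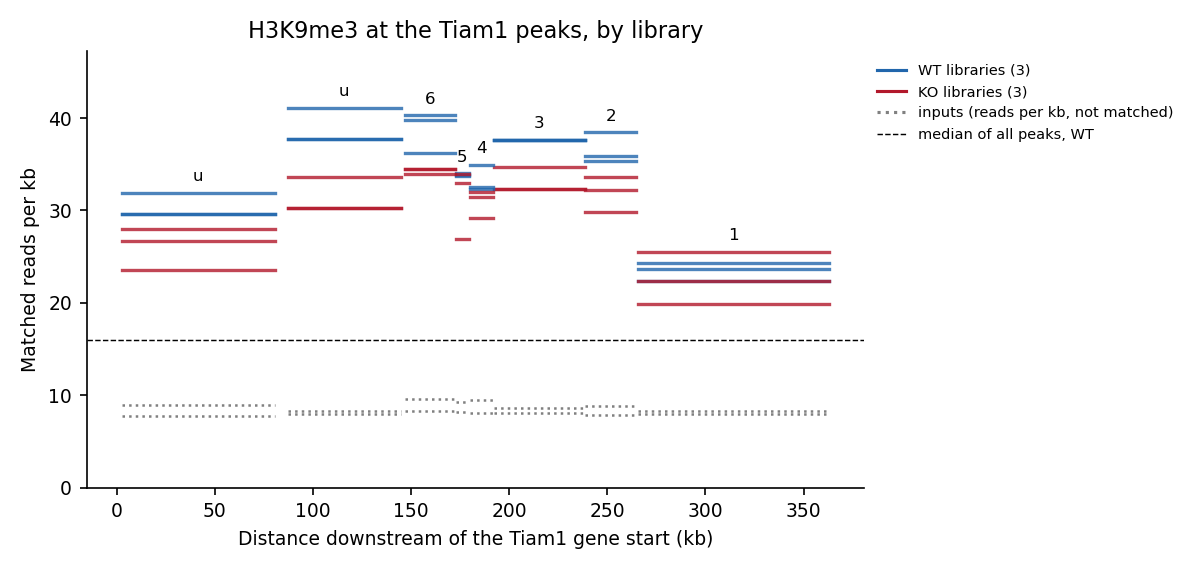
Matched reads per kb (y axis) at the 6 *Tiam1* peaks and at 2 peaks without an assigned gene (u) against distance downstream of the *Tiam1* gene start in kb (x axis), drawn as for *Trio*. All WT and KO bars lie above the WT median of all peaks (dashed, 16.0) and above the inputs, and KO means over the 6 assigned peaks range from 22.6 to 34.3.

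The log2 fold changes of the 6 peaks lay between -0.20 and -0.06, with a median of -0.15, compared to -0.08 for peaks of at least 10 kb. At peak 1 the log2 values were 11.21, 11.09 and 11.17 in WT and 10.92, 11.09 and 11.28 in KO. The genotypes overlapped at this peak, and its log2 fold change was -0.06 ± 0.08 (SE). At peak 2 (89878951 to 89905200) they were 9.98, 9.88 and 9.86 in WT and 9.72, 9.61 and 9.79 in KO, with the lowest log2 fold change of the 6, -0.20 ± 0.09 (SE). Peak 3 (89905351 to 89951700) had 10.77 in all 3 WT libraries and 10.55, 10.65 and 10.55 in KO, or a log2 fold change of -0.19 ± 0.08 (SE). The matching gives peaks at the same place in the distribution the same value, so the spread of such wide peaks between replicates is understated. Peaks 4, 5 and 6 (89952001 to 89963550, 89964301 to 89970900 and 89971501 to 89996850) had log2 fold changes of -0.11, -0.12 and -0.18. Without KO replicate 2, peak 3 alone was called.

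The inputs over *Tiam1* held 1855 WT and 1713 KO reads, a ratio of 0.923 (95% exact interval 0.864 to 0.987, counting error only). The ratio of 0.943 over all peaks lies within that interval. WT ChIP minus WT input had a median of 1.94 (1.49 to 2.13) and KO ChIP minus KO input of 1.98 (up to 2.04). The inputs are not scaled, so these 2 medians also carry the difference in depth between the inputs. Per kb, *Tiam1* peaks lay between percentiles 94.5 and 99.9 of all peaks in WT and between 92.8 and 99.8 in KO. They had 15.1 to 21.03% soft-masked bases and 16.4 to 18.2 CpG per kb, where the *Trio* peaks had 10.9 to 19.9% and 8.15 to 18.7 per kb.

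Past the 6 peaks the domain went on. The table gives no gene for 2 wide peaks from 89998951 to 90056550 and from 90063301 to 90141000, but both lie inside the GENCODE M21 model of *Tiam1*. Together the 8 peaks covered 96.8% of 360.0 kb and 96.0% of the gene, up to 2.77 kb from its start, with 31.9 to 32.3 matched reads per kb in WT and 26.6 to 29.3 in KO. These 2 peaks were not used to choose the gene, but they continue its domain in the same 6 libraries and are not separate observations. The first had log2 values of 11.09, 11.21 and 11.09 in WT and 10.77, 10.92 and 10.77 in KO, and fell by 0.31 ± 0.08 (SE, limma adjusted p = 0.0177). This call was lost without any 1 of the 3 WT libraries and without KO replicate 1, with the adjusted p rising to 0.247 without WT replicate 2. It was also lost with the log2 input subtracted (limma adjusted p = 0.290). As at *Tiam1* peak 3, the matching gave libraries of the same genotype equal values here, so the spread behind this SE and p is understated. At the second the log2 fold change was -0.22 ± 0.08 (SE, limma adjusted p = 0.172), with all 3 KO below all 3 WT libraries. This peak was called without KO replicate 2 or 3. Of the 286 peaks of at least 10 kb, 64.3% had a negative log2 fold change and 3.15% were called decreased. At 21.7% of the 286, all 3 KO lay below all 3 WT libraries.

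Around *Trio* itself, few peaks were present and limma called none of them. Within 500 kb of *Trio* there were 7 other peaks, of 900 to 2100 bp, 0 of them called, with log2 fold changes from -0.66 to 0.19. At an unadjusted p under 0.05 there was 1, lower in KO, and limma-voom on recovered reads called 0 as well. The nearest, at 28062901 to 28063800, was 37.1 kb upstream of the *Trio* start and its log2 fold change was -0.57 ± 0.32 (SE). Around *Tiam1*, 40 peaks lay outside the gene within 500 kb, and limma called 0, where 1.66% of all peaks were called. At an unadjusted p under 0.05 there were 7, all higher in KO (4.52% of all peaks), and limma-voom called 0 of the 39 it covered. On the side of the gene end, towards the keratin-associated protein genes, 29 of 35 had a positive log2 fold change. The median of the 35 was 0.35, with a range from -0.40 to 0.94. Without WT replicate 1, 2 of the 35 were called higher in KO, where that fit called 378 of all 53761 peaks higher. Over all peaks 49.7% had a negative log2 fold change. These 35 are narrow neighbouring peaks (median 1050 bp) in the same 6 libraries, so their signs are not separate observations, and a regional difference was not tested. The 5 on the other side, near *Hunk*, ranged from -0.28 to 0.20.

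Other genes of the Rac pathway were taken from 6 lists with 149 genes, of which 56 had a peak and 330 peaks in all. Of these peaks limma called 2 increased and 2 decreased, or 1.212%, compared to 1.66% of all peaks. *Kalrn*, the closest paralogue of *Trio*, had 6 peaks with log2 fold changes from -0.83 to 0.00. None of the 6 was called, 1 was lower in KO at an unadjusted p under 0.05, and limma-voom called 0. *Tiam2*, the paralogue of *Tiam1*, and *Rac1*, the GTPase on which both act, had 0 peaks.

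**Figure D5:**
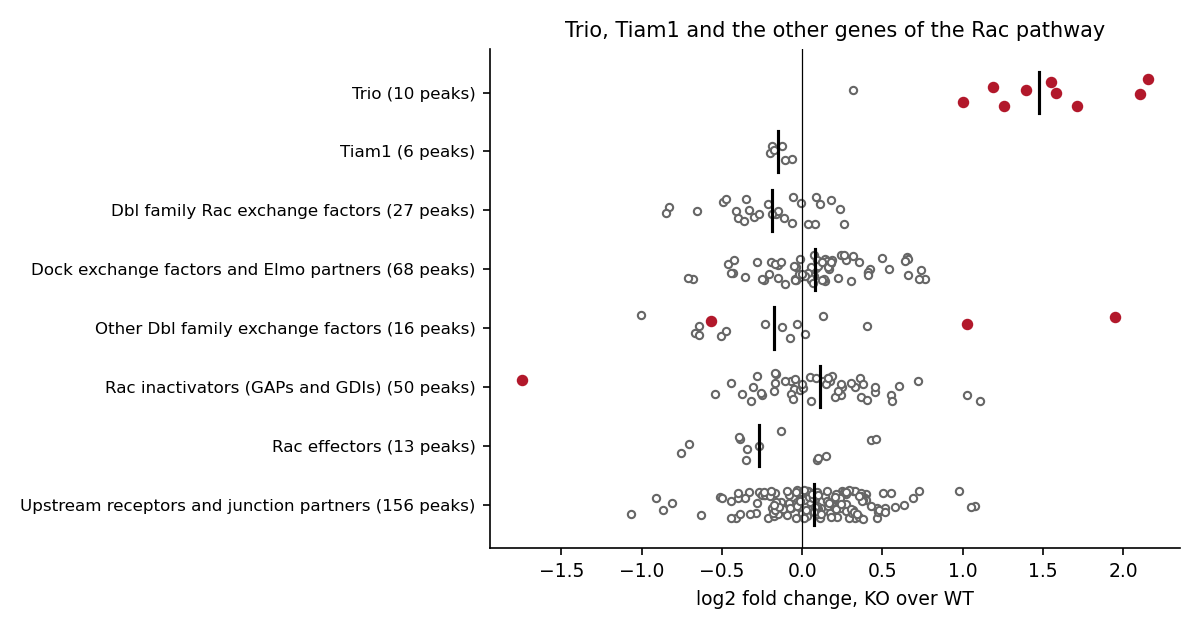
Log2 fold change of KO over WT (x axis) of each peak at *Trio*, at *Tiam1* and in 6 lists of Rac pathway genes (rows), with called peaks filled in red and the median of each row as a black bar. Of the 330 list peaks 4 are filled, and list medians lie between -0.27 and 0.11.

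Among the 9 Dbl family Rac exchange factors with a peak, which include *Vav2*, *Farp1* and *Kalrn*, 0 of 27 peaks were called in limma (4 lower in KO at an unadjusted p under 0.05, against 6.06% of all peaks, and 0 in limma-voom), with a median log2 fold change of -0.19. The Dock exchange factors and their Elmo partners had 68 peaks at 10 genes and a median of 0.08. None of these was called in limma or limma-voom, and at an unadjusted p under 0.05 there were 11, where 10.6% of all peaks passed. *Dock2*, the exchange factor of leukocytes, held 54 of them over 164250 bp, and its log2 fold changes ran from -0.43 to 0.77. The widest *Dock2* peak spanned 17550 bp.

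Other Dbl family exchange factors, most of which act on RhoA or Cdc42, had 16 peaks at 12 genes and held 3 of the 4 calls. These 3 were 18.75% of the 16 peaks, where limma called 1.66% of all peaks. At an unadjusted p under 0.05 there were 6 of the 16, where 10.6% of all peaks passed. Limma-voom called 2 of the 14 it covered, and 573 of the 52431 it covered over all peaks. *Arhgef17*, a RhoA exchange factor, had 1 peak (chromosome 7, 100930201 to 100931400, overlapping 1 annotated exon), with log2 values of 3.52, 3.33 and 2.05 in WT and 5.14, 5.00 and 4.61 in KO. It rose by a log2 fold change of 1.95 ± 0.33 (SE, limma adjusted p = 6.5e-05) and was called in each fit without 1 library. *Arhgef33* rose at 1 of 2 peaks (chromosome 17, 80372551 to 80373900, over exons), from 3.88, 3.56 and 3.97 to 5.19, 4.95 and 4.35. Its log2 fold change was 1.02 ± 0.27 (SE, limma adjusted p = 0.0318), and the call was lost without WT replicate 1 or 2 or KO replicate 1 or 2, where the adjusted p reached 0.242. *Arhgef11*, a RhoA exchange factor downstream of G proteins, fell by 0.56 ± 0.13 (SE, limma adjusted p = 0.00477) at 1 of 2 peaks (chromosome 3, 87665701 to 87673350, intronic), from 7.50, 7.61 and 7.47 to 7.09, 6.82 and 6.98. Without WT replicate 2 it was not called (limma adjusted p = 0.0669), nor with the log2 input subtracted (limma adjusted p = 0.230). KO and WT did not overlap at any of these 3 peaks, but they were picked because limma called them, so nothing is read from this. Of all peaks, 7.20% had all 3 KO above all 3 WT libraries and 8.42% had all 3 KO below.

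Genes that switch Rac off had 50 peaks at 12 genes. Limma called 1 of them, or 2.0%, near the 1.66% of all peaks. Limma-voom called 2 of the 50, and 573 of the 52431 peaks it covered in all. At an unadjusted p under 0.05 there were 7, where 10.6% of all peaks passed. The peak called by limma was intronic in *Chn2*, which encodes a Rac GTPase-activating protein (chromosome 6, 54235051 to 54235950). Its log2 values were 4.43, 4.43 and 4.55 in WT and 3.42, 2.32 and 2.42 in KO, and it fell by 1.75 ± 0.35 (SE, limma adjusted p = 0.0014), a call made in each fit without 1 library. *Arhgap15*, another Rac GTPase-activating protein, had 35 peaks with log2 fold changes from -0.54 to 1.03. Rac effectors had 13 peaks at 8 genes with a median of -0.27. Receptors and junction partners had 156 peaks at 5 genes, among them the netrin receptor gene *Dcc* with 40 (-1.07 to 1.08) and the phosphatase gene *Ptprd* with 59 (-0.50 to 1.05). In limma these last 2 lists had 0 calls, with 2 of 13 and 4 of 156 peaks at an unadjusted p under 0.05 (10.6% of all peaks), and 0 calls in limma-voom.

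By their mean profile over the 6 ChIP libraries, the genes most like *Trio* among 1174 other genes with at least 3 peaks were *Fat1* (Pearson's r = 0.999), *Tcf4* (0.997), *Tshz2* (0.997), *Cdyl2* (0.996) and *Bach1* (0.994). The first of these encodes an atypical cadherin, *Cdyl2* a chromodomain protein, and the other three transcription factors. Increased peaks numbered 7 of 8, 19 of 21, 9 of 14, 16 of 22 and 3 of 3 in these genes, in the same order. The genes most like *Tiam1* were *Cdh4* (0.980), a cadherin gene, *Lama3* (0.978), a laminin gene, *Dnahc7b* (0.970), *Fhad1* (0.963) and *Gabrb1* (0.961), with mean log2 fold changes of -0.43 to -0.21 and 1 called peak among them, a decrease at *Cdh4*. Of all peaks, limma called 0.796% increased and 0.863% decreased. Such an r over 6 libraries of 2 genotypes follows mainly the step between genotypes. The counts of called peaks in these genes follow from that pick, and both are given as a description.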

How the data were processed

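The data are H3K9me3 ChIP-seq of colon crypts, 3 ChIP and 1 input library for each of KO and WT. Per the labels and methods, the authors trimmed reads with Trim Galore (0.6.1 in the labels, another version in the methods), mapped them to GRCm38 with Bowtie 2 2.3.2 and ran the MACS peak finder of SeqMonk on the pooled ChIP libraries. The labels give single reads and the methods paired reads. The deposited log2 values of the ChIP libraries are read counts over each peak, bounded below and matched by the authors to 1 distribution, and those of the inputs are not scaled. Matching removes depth, and would remove a change shared by most peaks. A second table with the authors' p-values, FDR and fold changes was not used. A closest gene within 5 kb is given for 15680 of the peaks and none for the others.

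KO and WT were compared over all 53761 peaks with limma 3.58.1 in R 4.3.3 (trended variance prior, genotype only, two-sided, Benjamini-Hochberg). No raw counts were given. The script was tested on simulated data. Reads per ChIP value were counted from the steps of the values up to 100 reads. Gene models came from GENCODE M21, promoter windows from RefSeq (both genes matched). Other steps used Python 3.11.15, pandas 2.3.3, numpy 2.4.6, scipy 1.17.1 and matplotlib 3.10.9. The genes, gene lists and rules for naming were chosen with earlier results of these data known, and 1 gene list is not reported here. Named are all member peaks, Smarcad1, Vil1, Kalrn, Tiam2, Rac1, list genes with a called peak (at most 6 per list), called flanking peaks and the 5 most similar genes; Vav2, Farp1, Dock2, Arhgap15, Dcc, Ptprd and Hunk were named after their values were seen. Whether libraries came from separate animals is not stated in the labels, so p-values cover the spread between these libraries.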

Additional observations from a re-analysis of the deposited data

How the results depend on the processing

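Settings other than those used for the report moved the counts of called peaks as follows. Without a trend in the variance prior limma called 127 of all peaks, 3 of 10 at *Trio*, 0 of 330 in the Rac lists and 0 of 49 around both genes, where 892, 9, 4 and 1 had been called; by limma-voom on recovered reads these were 573, 5 of the 6 *Trio* peaks covered, 4, and 0 of the 46 covered around the genes, which left out the 1 called peak. Subtracting the log2 input takes the same value from all 3 libraries of a genotype, and it raised the median log2 fold change of all peaks to 0.0896. It gave 15873 called over all peaks, 100 in the lists and 20 around the genes. Those 20 left out the 1 peak called before. It turned *Tiam1* peaks 1, 4, 5 and 6 to log2 fold changes of 0.00504, 0.134, 0.0524 and 0.0210, of which peak 4 alone lay above that median. With 1 library left out, *Tiam1* peak 1 ranged from -0.152 to 0.0269. An adjusted p under 0.01 gave 554 over all peaks and 0 around the genes, and requiring a log2 fold change of 1 or more gave 511 and 0. With 1 library left out the counts ranged from 570 to 805 over all peaks, 8 to 9 at *Trio*, 0 to 1 at *Tiam1*, 2 to 5 in the lists and 0 to 2 around the genes, and the medians of WT ChIP minus input from -0.38 to -0.24 at *Trio* and from 1.93 to 1.97 at *Tiam1*. Over the mean of both inputs these medians were -0.15 and 2.03. With the 2 unassigned peaks in the gene model, a setting chosen after seeing the data, *Tiam1* had 1 called of 8. With the replicate number as a block, 872 peaks were called, 9 at *Trio*, 0 at *Tiam1*, 5 in the lists and 1 around the genes. The deviations of libraries of the same number correlated by -0.00, 0.02 and 0.02. With 3 libraries per genotype and few reads at most peaks, such values cannot show whether the libraries were paired, and the labels do not say. Of 257 single-peak values under the alternatives, 227 kept their direction and their side of the threshold, 24 were no longer called, 1 was newly called and 5 changed sign; the causes were not tested. Other counts differed by at most 1.5 times. Read counts limit the precision at the narrow *Trio* peaks, and 1 input per genotype gives no replicate error.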
